A study of Gallus gallus with 6 samples.

Results

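The smooth muscle regulators, receptors and channels described here are 10 genes that control the contraction of smooth muscle rather than build its filaments: MYOCD, SRF, MYLK, CHRM2, CHRM3, KCNMA1, KCNMB1, PRKG1, RYR2 and PLN. They were found by their NCBI chicken gene symbol among the 18315 Gene IDs of the files, and all 10 were listed. The libraries were made from cloacal skin, with the subcutaneous fat scraped off, of 6 Ma-Huang chickens of a single pure line kept at the same age and on the same feed. The s_light group held the 3 birds with low yellowness of the cloacal skin (s_light6575, s_light6971 and s_light8275, named by wing number), and the s_deep group held the 3 birds with high yellowness (s_deep6402, s_deep6403 and s_deep7858). The comparison asked which transcripts differ between skin of low and of high yellowness. No bird was treated and no genotype was altered, and each bird gave 1 library from a piece of skin that holds many cell types.

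Smooth muscle contracts when calcium, bound to calmodulin, activates myosin light chain kinase (MYLK), and it relaxes when myosin phosphatase undoes that step. Acetylcholine acts on muscarinic receptors (CHRM2 and CHRM3) to start contraction, and calcium leaves the internal store through ryanodine receptors (RYR2) and returns through a pump that phospholamban (PLN) holds back. Large-conductance potassium channels (KCNMA1, with the accessory subunit KCNMB1) and the cyclic GMP-dependent kinase PRKG1 oppose contraction. Above these stand the DNA-binding factor SRF and its coactivator MYOCD, which switch on smooth muscle filament genes. Smooth muscle of bird skin lies in the feather muscles and in vessel walls, and the cloaca also has muscle of its own.

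FPKM summed to between 471488 and 487585 in the s_light libraries and to between 472540 and 488777 in the s_deep libraries, and the number of reads behind a value was not given. Genes of the female-specific W chromosome parted the libraries across the groups: the mean log2(FPKM + 0.1) of 34 such genes was between 2.70 and 3.02 in s_light and 3.00 in s_deep7858, but -1.32 in s_deep6402 and -1.60 in s_deep6403. The labels give no sex, but the study's flock held males and females, and s_deep6402 and s_deep6403 may come from males. The part of sex then cannot be told apart from that of yellowness. Log2 fold changes with s_deep7858 as the only s_deep library are therefore also given for some genes. Among the smooth muscle regulators, receptors and channels, these are KCNMA1 and the genes whose value differs by over 1.5 times. For the relatives, filament genes, pathway genes and markers no such value is given. Its absence there does not mean that the fold change is the same against s_deep7858 alone. A fit with the W chromosome score as a covariate sets s_deep6402 and s_deep6403 apart and so rests largely on the same library. The values of these fits are not separate checks. Skin markers were read in every library. The keratins KRT5 and KRT14 of the basal epidermis were at no less than 791.99 and 615.64 FPKM in s_light and at no less than 769.1 and 630.04 FPKM in s_deep. Smooth muscle filament genes were also abundant: 16 of them summed to between 7453 and 13280 FPKM in s_light and to between 4046 and 6548 FPKM in s_deep.

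Among the 10 genes, KCNMA1 and RYR2 were read at about 6 times the s_deep level in s_light by the ratio of means. For RYR2 that ratio rested in large part on s_deep6402 and s_deep6403, at 0 and 0.07 FPKM. In s_deep7858 RYR2 was read at 0.46 FPKM, close to s_light6971 at 0.48 FPKM. MYLK was read higher in s_light by a smaller factor, and MYOCD, SRF, CHRM2, KCNMB1, PRKG1 and PLN had groups that overlapped. Of the 10 genes, 9 averaged 0.1 FPKM or more and were tested, and none passed the threshold. This was an FDR no higher than 0.05 together with a log2 fold change of 1 or more in either direction (limma on log2(FPKM + 0.1), Benjamini-Hochberg adjustment over 15900 genes). It was passed by 7 genes, or 0.044% of all genes tested. CHRM3 was too low to be tested. In 3 of the 9 genes (KCNMA1, RYR2 and MYLK) the groups did not overlap and s_light was higher, and in none was s_light lower without overlap. Of all genes tested, 10.8% had groups that did not overlap, 5.36% with s_light higher and 5.48% with s_light lower. The same 3 genes had an unadjusted p under 0.05, against 6.45% of all genes tested (3.49% higher and 2.96% lower in s_light). KCNMA1 alone of the 9 had such a p with the W chromosome score as a covariate, and also without s_light8275. The log2 fold change, s_light minus s_deep, was above 0 in 8 of the 9 genes, against 46.2% of all genes, and reached 1 in KCNMA1 and RYR2 (3.6% of all genes) and -1 in none (1.66%). Its median was 0.40 over the 9 genes and -0.02 over all genes tested. KCNMA1 and RYR2 stand in the study's own list of genes that differ between these libraries, so their counts are not independent of that list. With another test and a stricter adjusted p, the study called far more genes than the 7 called here. In skin pieces of this kind, fewer smooth muscle cells and less RNA per cell cannot be told apart.

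**Figure D1:**
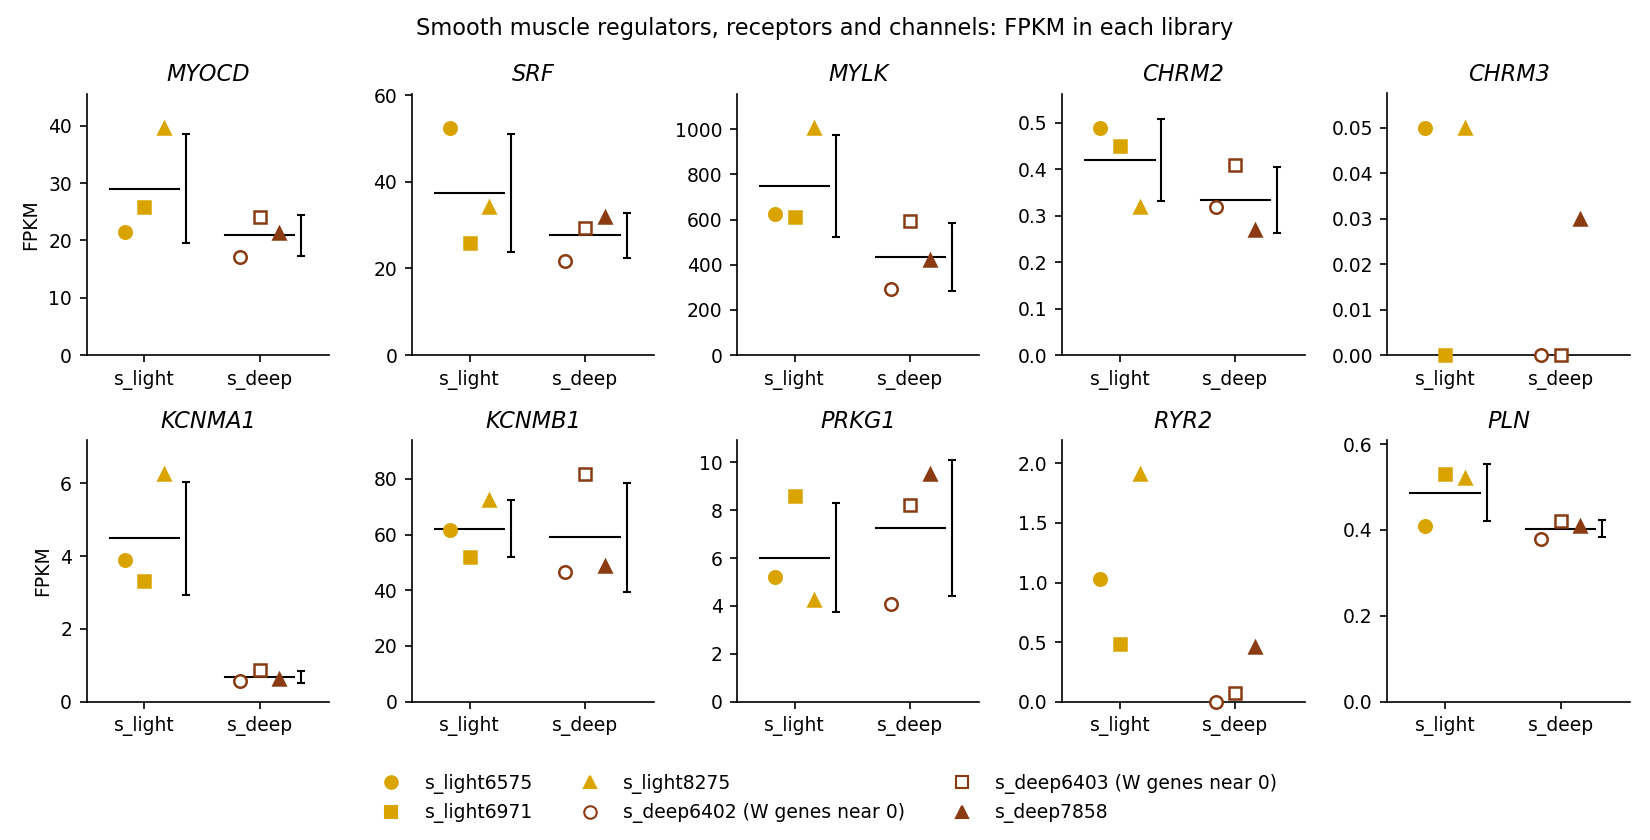
FPKM (linear axes from 0) of the 10 genes in each library, s_light left and s_deep right. Points are single libraries, open points mark the libraries with W chromosome genes near 0, horizontal lines are group means and bars the SD (n = 3 each; none are drawn for CHRM3 and RYR2, which are listed at 0 in some libraries). In KCNMA1 the 3 s_light libraries sit between 3.32 and 6.25 FPKM, all above the s_deep libraries at 0.57 to 0.88 FPKM.

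MYOCD (Gene ID 427790), the coactivator that binds SRF and is restricted to smooth and cardiac muscle, was read at 21.56, 25.88 and 39.68 FPKM in s_light, against 17.17, 24.16 and 21.36 FPKM in s_deep, the libraries being in the order given above here and in all that follows. The groups overlapped, since s_light6575 lay below s_deep6403, and the highest value was that of s_light8275. The means were 29.0 ± 9.46 FPKM in s_light and 20.9 ± 3.52 FPKM in s_deep (SD, n = 3 each), and the log2 fold change was 0.44 with a 95% interval from -0.13 to 1.01 (adjusted p = 0.873, limma). Without s_light8275 the log2 fold change was 0.19.

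SRF (Gene ID 396103), the DNA-binding partner of MYOCD, which is made in most cell types and also serves growth-factor responses, was read at 52.5, 25.89 and 34.12 FPKM in s_light and at 21.8, 29.34 and 31.8 FPKM in s_deep. A single library, s_light6575, stood above the rest, and s_light6971 lay inside the range of s_deep. The log2 fold change was 0.40 (95% interval -0.24 to 1.03, adjusted p = 0.937, limma) and dropped to 0.12 without s_light6575 and to 0.18 against s_deep7858 alone. SRF was thus highest in one s_light bird and MYOCD in another.

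MYLK (Gene ID 396445), the kinase that phosphorylates the regulatory light chain of myosin, was by far the most abundant of the 10 genes. It was read at 626.5, 613.38 and 1007.52 FPKM in s_light, against 290.91, 592.86 and 423.35 FPKM in s_deep. The groups did not overlap, but s_light6971 and s_deep6403 were close together, at 613.38 and 592.86 FPKM. Mean levels were 749 ± 224 FPKM in s_light and 436 ± 151 FPKM in s_deep (SD, n = 3 each), and the log2 fold change was 0.80 (standard error 0.31, 95% interval 0.08 to 1.53, adjusted p = 0.733, limma). The exact permutation test, two-sided, gave p = 0.1, which is the lowest value that 3 libraries in each group can reach. The chicken gene also encodes telokin, a short product of its last exons, and the FPKM per gene do not separate the transcripts.

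The muscarinic receptors of the list were read at low levels. CHRM2 (Gene ID 418126), which lowers cyclic AMP and is the more numerous muscarinic receptor in many smooth muscles of mammals, was read at 0.49, 0.45 and 0.32 FPKM in s_light and at 0.32, 0.41 and 0.27 FPKM in s_deep. The groups overlapped, with a log2 fold change of 0.26 (95% interval -0.53 to 1.06, adjusted p = 0.995, limma), or 0.48 against s_deep7858 alone. CHRM3 (Gene ID 396364), which drives calcium release through Gq, was read at 0.05 FPKM in s_light6575 and s_light8275 and at 0.03 FPKM in s_deep7858, and it was listed at 0 in s_light6971, s_deep6402 and s_deep6403. It was left out of the test. The muscarinic receptor with the highest FPKM was CHRM4, at 4.9, 1.71 and 1.91 FPKM in s_light and 3.39, 7.01 and 4.92 FPKM in s_deep (log2 fold change -0.93, 95% interval -1.98 to 0.13, adjusted p = 0.814, limma). CHRM4 was thus above CHRM2 in all 6 libraries, and CHRM5 did not exceed 0.04 FPKM. FPKM are scaled by gene length, so these levels can be set beside each other, although the length used depends on the annotation.

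The potassium channel gene KCNMA1 (Gene ID 374065), which encodes the pore-forming subunit opened by calcium and by depolarization, showed the clearest difference among the 10 genes. It was read at 3.89, 3.32 and 6.25 FPKM in s_light, against 0.57, 0.88 and 0.61 FPKM in s_deep. The groups were far apart: the lowest s_light library was more than 3 times as high as the highest s_deep library. Means were 4.49 ± 1.55 FPKM in s_light and 0.687 ± 0.169 FPKM in s_deep (SD, n = 3 each), a ratio of 6.53. The log2 fold change of 2.51 (standard error 0.32, 95% interval 1.76 to 3.26) was exceeded by 0.547% of all genes tested, but its adjusted p of 0.0812 (limma, unadjusted p = 9.2e-05) missed the threshold. The exact two-sided permutation test gave p = 0.1, the smallest possible.

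KCNMA1 was low in all 3 s_deep libraries, whether or not they read W chromosome genes. s_deep7858, which read them, had 0.61 FPKM, and the libraries in which they were near 0 had 0.57 and 0.88 FPKM. With the W chromosome score as a covariate the log2 fold change was 2.64 (adjusted p = 0.339, limma). Set against s_deep7858 alone, with the spread of that lone library assumed to equal that of s_light, it was 2.64. Both values rest largely on s_deep7858 and are not separate checks. Over all alternatives the log2 fold change stayed between 1.67, at a pseudocount of 1 FPKM, and 2.70, without s_light6971, and the adjusted p between 0.0746 and 0.529.

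KCNMB1 (Gene ID 395301), the accessory beta subunit that raises the calcium sensitivity of the channel and is found mainly in smooth muscle, did not part the groups. It was read at 61.59, 52.1 and 72.47 FPKM in s_light and at 46.61, 81.69 and 48.78 FPKM in s_deep. The highest value was that of s_deep6403, an s_deep library, and the lowest that of s_deep6402. The means were 62.1 ± 10.2 FPKM in s_light and 59.0 ± 19.7 FPKM in s_deep (SD, n = 3 each), and the log2 fold change was 0.11 with a 95% interval from -0.45 to 0.67 (adjusted p = 0.999, limma), and its sign turned when s_light8275, s_deep6402 or s_deep7858 was left out, with values from -0.038 to 0.37 over the libraries left out in turn. Against s_deep7858 alone it was 0.33. The other beta subunits of the list, KCNMB2 and KCNMB4, also had overlapping groups, with log2 fold changes of -0.33 and -0.05. The interval for KCNMB1 lay wholly below that for KCNMA1.

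The FPKM of KCNMA1 divided by that of KCNMB1 was 0.0632, 0.0637 and 0.0862 in s_light, against 0.0122, 0.0108 and 0.0125 in s_deep. The ratio was close to constant among the s_deep birds, although KCNMB1 itself differed between them, and was 6.0 times as high on average in s_light (exact two-sided permutation p of 0.1, the smallest possible). This pair was chosen after the values were seen and is 1 of 9 pairs computed. In FPKM the accessory subunit was far above the pore-forming subunit in all 6 libraries, and the ratio does not give the number of subunits in a channel.

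**Figure D2:**
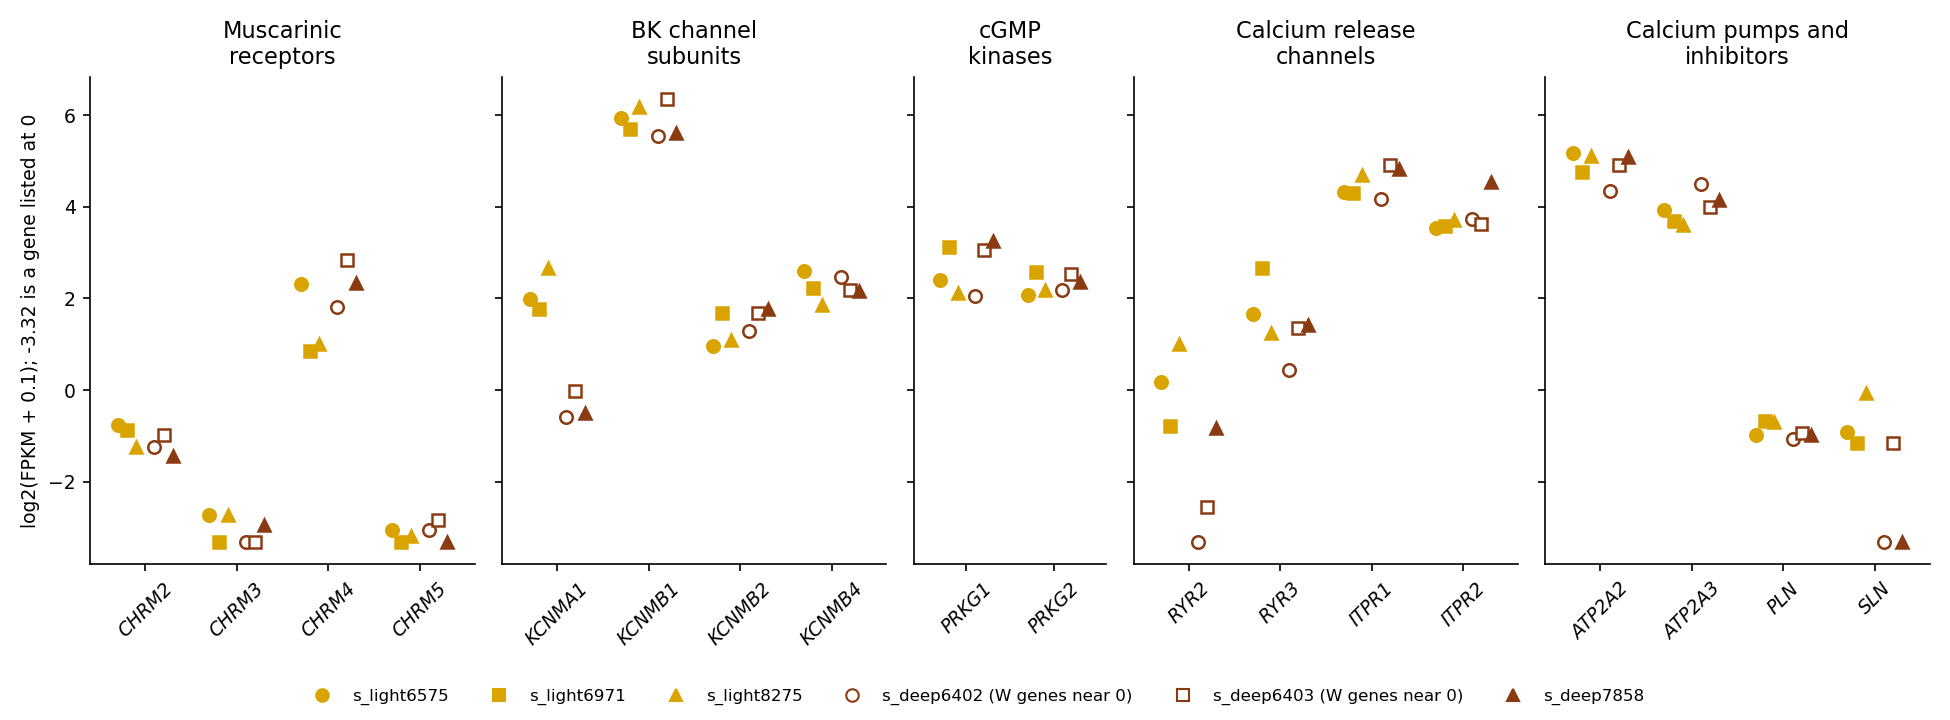
Levels of the listed genes beside their relatives, as log2(FPKM + 0.1) on the vertical axis, for muscarinic receptors, subunits of the large-conductance (BK) potassium channel, cyclic GMP-dependent kinases, calcium release channels, and calcium pumps with their inhibitors. Points are single libraries, s_light left of s_deep, and open points mark libraries with W chromosome genes near 0. KCNMA1 parts the groups while KCNMB1, KCNMB2 and KCNMB4 do not, and CHRM4 lies above CHRM2, CHRM3 and CHRM5.

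PRKG1 (Gene ID 423682), the kinase through which nitric oxide and cyclic GMP relax smooth muscle, was the single gene of the 9 with a lower mean log2 level in s_light. It was read at 5.22, 8.6 and 4.24 FPKM in s_light and at 4.07, 8.22 and 9.51 FPKM in s_deep. The libraries of both groups were spread over the same range, and the lowest value was again that of s_deep6402. The log2 fold change of -0.24 had a 95% interval from -1.15 to 0.66 (adjusted p = 0.995, limma), and over the libraries left out in turn it lay between -0.61, without s_deep6402, and -0.01, without s_deep7858. It was -0.63 with the W chromosome score as a covariate and -0.71 against s_deep7858 alone. PRKG2, the other kinase of this kind, was read at between 4.13 and 5.86 FPKM in s_light and between 4.45 and 5.67 FPKM in s_deep.

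RYR2 (Gene ID 421508), a calcium release channel of the internal store best known from heart muscle, was read at 1.03, 0.48 and 1.91 FPKM in s_light. In s_deep7858 it was read at 0.46 FPKM, in s_deep6403 at 0.07 FPKM, and in s_deep6402 it was listed at 0. The groups did not overlap, but by 0.02 FPKM only, between s_light6971 and s_deep7858. The ratio of the group means was 6.45, and the log2 fold change 2.37 (standard error 0.74, 95% interval 0.62 to 4.12, adjusted p = 0.643, limma), with an exact two-sided permutation p of 0.1.

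The libraries with W chromosome genes near 0 were also those in which RYR2 was lowest, while s_deep7858 and s_light6971, which read them, were close together at 0.46 and 0.48 FPKM. The part of the W chromosome genes, or of the sex of the birds, in this difference was not tested beyond the fits that follow. With the W chromosome score as a covariate the log2 fold change of RYR2 was 1.02 (adjusted p = 0.935, limma), and against s_deep7858 alone it was 0.97, while without s_deep7858 it was 3.07 (adjusted p = 0.168, limma). It also depended on the pseudocount, with 0.83 at 1 FPKM and 3.78 at 0.01 FPKM. Under quantile normalization the groups overlapped.

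Among the other calcium release channels the groups overlapped. RYR3, another ryanodine receptor, was read at 3.08, 6.23 and 2.28 FPKM in s_light and at 1.25, 2.47 and 2.56 FPKM in s_deep, above RYR2 in all 6 libraries, with a log2 fold change of 0.79 (95% interval -0.24 to 1.82, adjusted p = 0.871, limma). Among the inositol trisphosphate receptors, ITPR1 had a log2 fold change of -0.20 and ITPR2 one of -0.36. Their intervals included 0.

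PLN (Gene ID 396378), the small membrane protein that inhibits the calcium pump of the store, was the most even of the 10 genes. It was read at 0.41, 0.53 and 0.52 FPKM in s_light and at 0.38, 0.42 and 0.41 FPKM in s_deep, so that the highest library was 1.39 times the lowest. The groups overlapped at s_light6575, and the log2 fold change was 0.22 (95% interval -0.50 to 0.93, adjusted p = 0.995, limma). The pump itself, ATP2A2, was far more abundant, at between 27.02 and 35.79 FPKM in s_light and between 20.1 and 33.66 FPKM in s_deep. SLN, which encodes sarcolipin, another inhibitor of the pump, was read at 0.43, 0.35 and 0.86 FPKM in s_light and at 0.35 FPKM in s_deep6403, and was listed at 0 in the other s_deep libraries (log2 fold change 1.89, adjusted p = 0.7, limma).

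Ordered by mean FPKM over the 6 libraries, MYLK at 592 stood first, above KCNMB1 at 60.5, SRF at 32.6, MYOCD at 25.0, PRKG1 at 6.64, KCNMA1 at 2.59, RYR2 at 0.658, PLN at 0.445, CHRM2 at 0.377 and CHRM3 at 0.0217. Among neighbours in this order, the ranges were apart only between MYLK and KCNMB1, between MYOCD and PRKG1 and between CHRM2 and CHRM3. SRF lay above MYOCD in 5 of the 6 libraries, and RYR2 above PLN in 3. The order was not the same within each group: RYR2 averaged 1.14 FPKM in s_light, above PLN and CHRM2, but 0.177 FPKM in s_deep, below PLN at 0.403 and CHRM2 at 0.333 FPKM. The mean level of MYLK exceeded that of 99.2% of all genes tested, and that of CHRM2 exceeded 9.91%. Of the 9 genes, 8 had their lowest value in s_deep6402 and 4 had their highest in s_light8275. The same shares over all genes tested are not given, so these counts are no result about the 9 genes.

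Smooth muscle filament genes were also read higher in s_light, and the 10 genes were therefore set against them in the same library. Of the 16 filament genes, 11 had an unadjusted p under 0.05 and a higher level in s_light (3.49% of all genes), 10 had groups that did not overlap, all of them higher in s_light (5.36% of all genes), and none passed an FDR of 0.05 (limma). The study's list of differing genes, selected on the same libraries, holds 8 of the 16 (ACTG2, MYH11, TAGLN, CNN1, DES, SMTN, TPM1 and MYL9). The log2 fold changes were 3.76 for CNN1 (calponin), 3.65 for DES (desmin), 3.51 for ACTG2 (enteric actin) and 2.45 for TAGLN (transgelin), but 0.09 for LMOD1 (leiomodin) and -0.32 for ACTA2, the actin of vessel walls. KCNMA1, at 2.51, thus lay near TAGLN, and KCNMB1, at 0.11, near LMOD1.

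**Figure D3:**
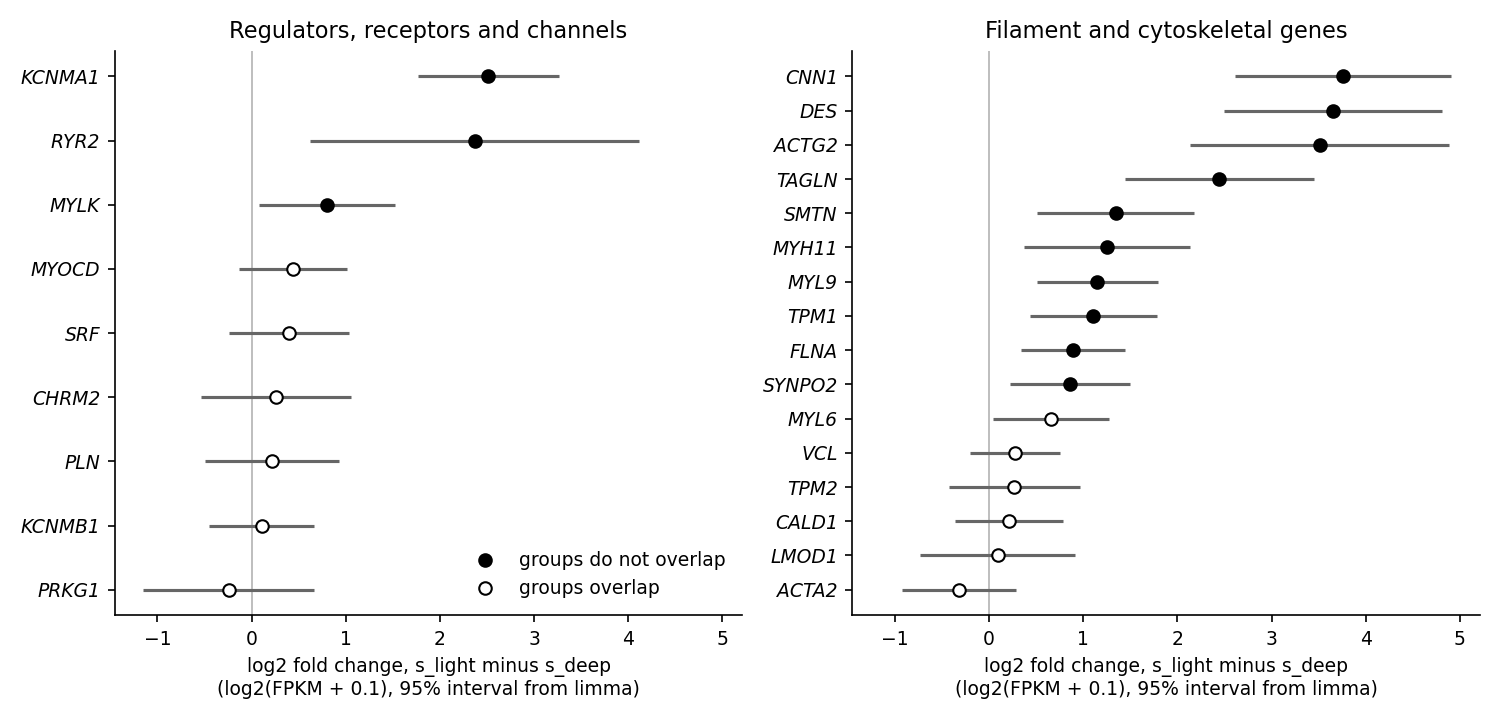
Log2 fold change, s_light minus s_deep, of the 9 genes tested (left) and of 16 smooth muscle filament genes (right) on the log2(FPKM + 0.1) scale, with 95% intervals from limma as horizontal lines. Filled points mark genes whose groups do not overlap. The estimates of KCNMA1 at 2.51 and RYR2 at 2.37 lie above those of the other 7 genes, at -0.24 to 0.80. The interval of RYR2 (0.62 to 4.12) overlaps that of MYLK (0.08 to 1.53). The filament genes run from -0.32 to 3.76.

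The mean log2(FPKM + 0.1) of the filament genes was 8.38, 8.16 and 9.07 in s_light and 6.86, 7.65 and 7.14 in s_deep, a difference of 1.32. Since this mean is itself higher in every s_light library, subtracting it puts a gene of even level lower in s_light: over all genes tested the median difference was -1.34, and 77.2% lay lower in s_light without overlap. Relative to the mean, 7 of the 9 genes lay lower in s_light on average, with differences from -0.52 (MYLK) to -1.57 (PRKG1) log2 units, and 6 of them (MYOCD, MYLK, CHRM2, KCNMB1, PRKG1 and PLN) without overlap. That share is near that of all genes and is no result about the 9 genes. The difference was -0.88 for MYOCD and -1.21 for KCNMB1. Against 5 filament genes alone (MYH11, ACTG2, CNN1, DES and LMOD1) the differences of the same 7 genes ran from -1.65 (MYLK) to -2.70 (PRKG1), all without overlap, against a median of -2.47 over all genes, 91.9% of which lay lower without overlap.

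KCNMA1 alone of the 9 genes lay higher relative to the filament genes in s_light with no overlap between the groups, as did 0.308% of all genes tested. Its values relative to the filament mean were -6.39, -6.39 and -6.40 log2 units in s_light, against -7.44, -7.68 and -7.63 in s_deep, a difference of 1.19 that was 0.36 at a pseudocount of 1 FPKM. In s_light its level thus kept a near constant distance from the mean of the 16 filament genes, although both differed between the birds. This describes 3 libraries and was not tested. Against the 5 filament genes the difference was 0.06 and the groups overlapped. RYR2 relative to the filament genes differed by 1.05 with overlapping groups, and this turned to -0.48 at a pseudocount of 1 FPKM and to -0.082 against the 5 filament genes.

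**Figure D4:**
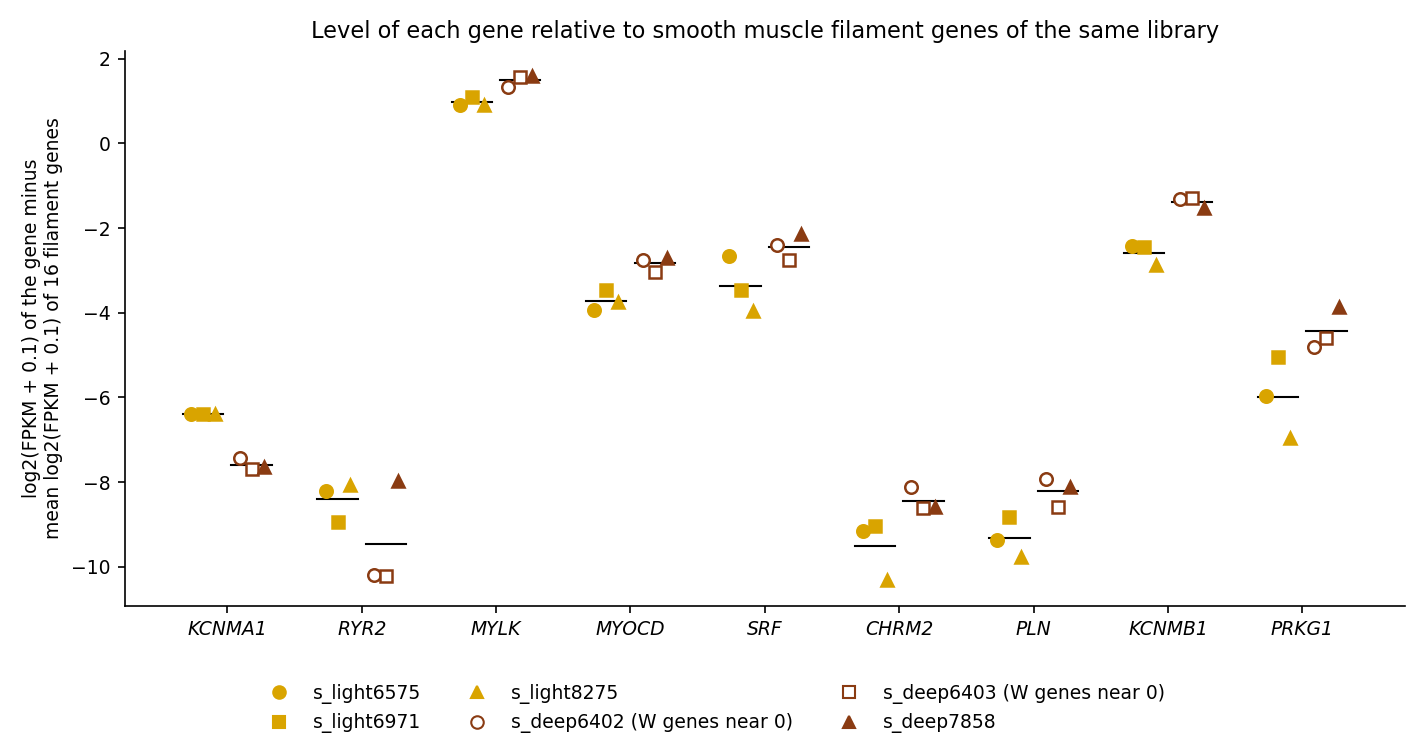
Level of each gene relative to the smooth muscle filament genes, as log2(FPKM + 0.1) of the gene minus the mean of 16 filament genes in the same library (log2 units). Points are single libraries, s_light left of s_deep, open points mark libraries with W chromosome genes near 0, and lines are group means. KCNMA1 lies higher in s_light by 1.19 and 7 genes differ by -0.52 to -1.57, against 0.06 and -1.65 to -2.70 where 5 filament genes stand in for the 16. Over all genes tested the median difference was -1.34 with the 16 and -2.47 with the 5. RYR2 differs by 1.05 with overlapping groups.

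Other genes that act beside the 10 were followed in 6 lists of 78 entries, of which 66 genes were tested. None passed the threshold (limma). With an unadjusted p under 0.05, 7 were higher and 5 lower in s_light (12 of 66, against 6.45% of all genes), and 12 had groups that did not overlap (5 higher and 7 lower in s_light, 18.2%, against 10.8% of all genes). ADRA1A, P2RX1, CACNB2, CACNA1H and NPR3 stand in the study's list. The median log2 fold change of the 66 genes was -0.02, the same as that of all genes tested.

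Among 7 tested transcription factors of the smooth muscle programme, none had an unadjusted p under 0.05 and none had groups free of overlap. The lowest p belonged to MRTFB, a relative of MYOCD that also binds SRF, with a log2 fold change of -0.26 (95% interval -0.58 to 0.07, adjusted p = 0.868, limma). HEY2, a repressor in the Notch pathway, had one of -0.28 and GATA6, which is made in vessel smooth muscle, one of -0.60. PPP1R12A, the targeting subunit of the phosphatase that opposes MYLK, had a log2 fold change of 0.28 (95% interval -0.30 to 0.85, adjusted p = 0.958, limma).

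Among 16 receptors and G proteins, 3 had an unadjusted p under 0.05 with a higher level in s_light (3.49% of all genes) and 1 with a lower level (2.96%). ADRA1A, the alpha-1A adrenergic receptor through which noradrenaline contracts smooth muscle, was read at 1.46, 0.49 and 2.55 FPKM in s_light, against 0.15, 0.26 and 0.05 FPKM in s_deep. The groups did not overlap, and the log2 fold change was 2.50 with a 95% interval from 1.03 to 3.97 (adjusted p = 0.433, limma). P2RX1, an ATP-gated cation channel of smooth muscle, had a log2 fold change of 1.21 and overlapping groups, with 123.41 FPKM in s_light8275. PTGER2, a prostaglandin E2 receptor that raises cyclic AMP, was lower, at 13.75, 14.2 and 13.22 FPKM in s_light and 18.44, 19.1 and 22.92 FPKM in s_deep (log2 fold change -0.55, adjusted p = 0.381, limma).

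Among 14 ion channel genes, 2 had such a p with a higher level in s_light and 2 with a lower level, against the same shares of all genes. CACNB2, a beta subunit of voltage-gated calcium channels, was read at 0.8, 0.85 and 1.44 FPKM in s_light, against 0.15, 0.29 and 0.19 FPKM in s_deep. Its log2 fold change of 1.85, with a 95% interval from 0.98 to 2.72 (adjusted p = 0.295, limma), had the lowest p of the 66 genes. CACNA1C, the pore of the L-type calcium channel that admits calcium into smooth muscle, was read at 5.26, 4.91 and 6.15 FPKM in s_light, against 2.64, 3.5 and 3.6 FPKM in s_deep. The groups did not overlap for either gene, and the log2 fold change of CACNA1C was 0.73 (adjusted p = 0.5, limma). TRPC6, a cation channel opened by diacylglycerol, was read lower in every s_light library, with a log2 fold change of -0.64 (adjusted p = 0.505, limma).

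Among 12 genes of the calcium store, 1 (8.33%) had groups that did not overlap, near the 10.8% of all genes tested. This was ATP2A3, a calcium pump, read lower in every s_light library with a log2 fold change of -0.47 (adjusted p = 0.7, limma). In the cyclic GMP list of 9 genes, 3 (33.3%) had groups that did not overlap, 1 higher and 2 lower in s_light. NPR3, which clears natriuretic peptides, was read at 4.33, 3.69 and 3.56 FPKM in s_light, against 1.72, 1.26 and 2.4 FPKM in s_deep. Its groups did not overlap (adjusted p = 0.428, limma). GUCY1A1, a subunit of the nitric oxide receptor that makes cyclic GMP, and NOS1, a nitric oxide synthase, were read lower in every s_light library, with log2 fold changes of -0.65 and -0.66 (adjusted p = 0.748 and 0.873, limma).

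Markers of other cells in the skin that can express these genes were read beside them. Nerve cell markers summed to between 9.7 and 13.01 FPKM in s_light and to between 3.9 and 5.56 FPKM in s_deep, and 3 of the 5 tested (STMN2, UCHL1 and RET) had groups that did not overlap, all higher in s_light (5.36% of all genes). RET, a growth factor receptor, was at 7.79 to 9.06 FPKM in s_light, most of the sum there, and at 1.2 to 3.77 FPKM in s_deep. STMN2 and UCHL1 were low, at no more than 0.68 and 0.99 FPKM in any library. PRPH, a neuronal filament gene, had overlapping groups and a log2 fold change of -0.54, and SNAP25, of the nerve terminal, was at 0.02 to 0.1 FPKM in s_light and 0.07 to 0.2 FPKM in s_deep. Of the cardiac markers, NKX2-5 and MYL2 were listed at 0 in every library. TNNC1, the highest of that list, was read at 12.26, 4.39 and 5.28 FPKM in s_light and 1.76, 4.74 and 2.0 FPKM in s_deep. Its groups overlapped, with a log2 fold change of 1.33 (adjusted p = 0.72, limma). The cardiac list summed to between 5.62 and 14.47 FPKM in s_light and to between 2.57 and 5.97 FPKM in s_deep. All 4 cardiac genes tested had a log2 fold change above 0 (46.2% of all genes), with a median of 0.95 and overlapping groups. The list did not hold ACTC1 and MYL4, which the paper ranks among its largest rises in s_light. Of the skeletal markers, MYOG was listed at 0 in every library. TNNT3, the highest of that list, was at 0.98 to 2.38 FPKM in s_light and 0.99 to 2.44 FPKM in s_deep. The skeletal list summed to between 1.33 and 3.11 FPKM in s_light and to between 1.69 and 4.51 FPKM in s_deep. Only 6 of its 12 genes were matched to a Gene ID, so these sums leave out the rest. Endothelial markers summed to between 434 and 548 FPKM in s_light and to between 499 and 681 FPKM in s_deep. Of these, 2 of 7 (KDR and CLDN5) were lower in every s_light library (5.48% of all genes). The most abundant, PECAM1, VWF and CDH5, had overlapping groups and log2 fold changes of -0.14, -0.41 and -0.30. In s_deep6402, s_deep6403 and s_deep7858, VWF was at 228.89, 228.12 and 153.14 FPKM, the last inside the s_light range. PECAM1 was at 203.63, 211.65 and 151.78 FPKM in these libraries, and CDH5 at 70.06, 65.29 and 63.74 FPKM. Pericyte and vessel wall markers summed to between 232 and 243 FPKM in s_light and to between 207 and 326 FPKM in s_deep, and none of the 6 had groups free of overlap. Fat cell markers summed to between 2220 and 2305 FPKM in s_light and to between 1526 and 1833 FPKM in s_deep, with 3 of 6 genes (FABP4, PLIN1 and CIDEC) higher in every s_light library (5.36% of all genes) and ADIPOQ, the most abundant of the 6, at a log2 fold change of -0.35. The part of nerve, cardiac and fat cell RNA in the differences of KCNMA1 and RYR2 was not tested.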

How the data were processed

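RNA of 6 cloacal skin pieces was sequenced, 3 libraries per group, grouped by the sample titles. The authors removed adaptors, low-quality and rRNA reads and deposited FPKM per gene, rounded to 2 decimals. The methods name TopHat and the Gallus_gallus-5.0 reference, whereas the submitters' processing notes name HISAT2 2.0.4, Bowtie2 2.2.5, RSEM 1.1.12 and DESeq2 1.4.5, and the labels and the methods also differ on the sequencing instrument. Read counts were not used here, so counting error is unknown. Symbols came from the RefSeq table of assembly GRCg7b (83.5% of IDs with a symbol). That assembly is not the authors' build, so no coordinates are given. No sequence of these genes was in the sources used here. CNN1 was taken from the study's supplementary list by Gene ID.

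Of the 18315 genes, the 15900 whose FPKM averaged 0.1 or more were tested on log2(FPKM + 0.1) with limma 3.58.1 in R 4.3.3, with an intensity trend. Fold changes are s_light minus s_deep, and p-values were adjusted by Benjamini and Hochberg. Because of the pseudocount, a fold change is understated where FPKM are low. The procedure was tested on simulated data. Single values were compared with exact permutation tests (20 permutations, smallest p 0.1; scipy 1.17.1 in Python 3.11.15). Each library is a separate bird. The genes and lists were chosen with earlier results of these data known. Some items of the lists are not reported here. The text names all 10 genes, up to 3 of the genes of lowest p in each pathway list, some markers and the 5 genes closest to MYOCD. Not all markers of highest level are named. Other markers, relatives, ratio pairs and other genes named were chosen after their values were seen. The fit was repeated with a pseudocount of 1 or 0.01, without the filter, with a filter at 1 FPKM, after quantile normalization, after median-of-ratios scaling, without the trend, with the mean of 34 W chromosome genes as a covariate, and without each of the libraries in turn. The comparison with filament genes was repeated on 5 in place of 16. A fit on the 4 libraries that read W chromosome genes was added after the data were seen.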

Additional observations from a re-analysis of the deposited data

How the results depend on the processing

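No gene of the 9 passed the threshold under any of the 15 alternatives (limma), and between 1 and 4 of them had an unadjusted p under 0.05. The direction of every log2 fold change held, except that KCNMB1 (0.11) turned to -0.010 without s_light8275, -0.038 without s_deep6402 and -0.005 without s_deep7858, and was 0.37 without s_deep6403. RYR2 relative to the filament genes (1.05) turned to -0.48 at a pseudocount of 1 FPKM and to -0.082 with 5 filament genes. The number of all genes called, 7, was 11 at a pseudocount of 1 FPKM, 12 with median-of-ratios scaling, 0 with the W chromosome score as a covariate, 0 on the 4 libraries that read W chromosome genes, and between 0 and 69 with each library left out, the highest without s_deep7858. With the W chromosome score, 967 genes had an unadjusted p under 0.05 (limma), on the 4 libraries 920, and with each library left out between 714 and 1380, against 1026 in all 6 libraries. The cause was not tested. The number of genes of the 9 whose groups did not overlap, 3, was between 3 and 5 with each library left out, where 17.7% to 23.9% of all genes did not overlap, and 7 on the 4 libraries, where 50.1% did not. CHRM2, RYR2 and PLN fell under a minimum mean of 1 FPKM and have no value there. No paired analysis was possible because no wing number occurs in both groups. The reads behind the FPKM are unknown, so the precision of low values (CHRM3, CHRM2, PLN, RYR2, and KCNMA1 in s_deep) could not be given.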

Other observations

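Of 11169 genes with a gene name and a mean of at least 1 FPKM, those whose log2(FPKM + 0.1) over the 6 libraries was closest to MYOCD by Pearson's r were SLC38A2 (r = 0.99), a glutamine transporter, SGCE (r = 0.98), a sarcoglycan of the muscle membrane, MYL10 (r = 0.97), a myosin light chain, MSRB3 (r = 0.97), a methionine sulfoxide reductase, and RWDD2B (r = 0.97). These values are a description over 6 libraries that share the high value of s_light8275. MYL10 was read at 8.57 FPKM in s_light8275, while s_light6575 had 0.7, s_light6971 had 1.84 and the s_deep libraries had at most 0.71 FPKM. MYLK was 25th in this order (r = 0.92), while SRF was 2656th (r = 0.22) and PRKG1 had r = -0.10.

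Of the 9 ratios of FPKM within a library, chosen after the values were seen, 5 had groups that did not overlap. The share among other gene pairs was not computed. Because the pairs were picked that way, neither this count nor the p-values below are support for a difference. MYLK over PPP1R12A, the kinase over a subunit of the phosphatase that opposes it, was 10.6, 9.08 and 12.1 in s_light and 6.58, 7.24 and 8.24 in s_deep. MYLK over MYH11, the smooth muscle myosin heavy chain, was 1.31, 1.34 and 1.13 in s_light and 1.42, 1.48 and 2.37 in s_deep. CHRM2 over CHRM4 was 0.1, 0.263 and 0.168 in s_light and 0.0944, 0.0585 and 0.0549 in s_deep. Each had an exact two-sided permutation p of 0.1, the smallest possible. PLN over ATP2A2 was between 0.0115 and 0.0196 in s_light and between 0.0122 and 0.0189 in s_deep (exact permutation p = 0.9).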
